A study of Mus musculus with 12 samples.

Results

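The genes described here encode the proteins of the mitochondrial ribosome and of the machinery that imports proteins into mitochondria, in mouse carotid arteries. They were chosen by name alone, as every gene whose symbol in the array's annotation starts with Mrpl, Mrps, Timm or Tomm followed by a digit. This gave 98 genes of the 19057 genes with a probe, carried by 172 probes, of which the one brightest on average over the 12 arrays was used for each gene. By role they were 48 proteins of the large ribosomal subunit, 28 of the small subunit, 6 of the outer membrane translocase (TOM), 6 of the presequence translocase (TIM23), 9 of the carrier translocase and its small chaperones (TIM22), and Tomm34, a cytosolic co-chaperone. Of the 98, 96 reached their array's median on at least 3 arrays and were tested among 15395 genes, while Mrpl35 and Mrps14 were not. The role names follow the symbols, although in mammals the proteins of Mrps30 and Mrps18a sit in the large subunit.

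The study used 12 one-colour Illumina arrays, on which each probe's brightness (intensity, a linear scale) reports the amount of an RNA. Flow in the left common carotid artery (LCA) was disturbed by partial ligation, the right common carotid artery (RCA) was not operated on, and both were taken after 1 day. The question was how loss of fibulin-5, a matrix protein of elastic fibres encoded by Fbln5, affects the arterial response to disturbed flow. There were 4 groups of 3 arrays: RCA and LCA of wild type mice (WT), and RCA and LCA of mice labelled FibVKO (KO). All 12 samples carry the strain label C57Bl/6J, RNA came from the explanted arteries, and the series' design text speaks of a knockdown where the sample titles say KO. The single Fbln5 probe was above background on 0 of 12 arrays, with 84.9 to 88.0 for WT RCA, 86.5 to 88.0 for WT LCA, 80.6 to 97.4 for KO RCA and 81.7 to 88.4 for KO LCA, so it does not check the genotype. Labels number the samples of a group from 1 to 3 without stating that they are separate mice, so the p-values here reflect only how much these samples scatter, which may be technical. RCA and LCA arrays of a genotype may also come from the same mice, so the arrays of a genotype are not known to be independent.

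Mitochondria make a few subunits of the respiratory chain on their own ribosomes, whose RNA is mitochondrial and whose proteins are all encoded in the nucleus, made in the cytosol and imported. Imported proteins cross the outer membrane through TOM, after which TIM23 takes those with a presequence into the matrix or inner membrane, and the small Tim chaperones carry hydrophobic carriers through the intermembrane space to TIM22. In the artery wall these genes are active in smooth muscle, endothelial and adventitial cells alike.

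Most of these genes were dim on the arrays. As a guide to background the 95th percentile of 1504 olfactory and vomeronasal receptor probes was taken on each array, which lay between 95.7 and 126. Only 8 members exceeded it on all 12 arrays (Mrpl13, Mrpl16, Mrpl24, Mrpl33, Mrpl49, Mrps18c, Mrps21 and Mrps24) and 4 on none (Mrps2, Mrps14, Timm22 and Timm8a2). The number of members above the guide was 72, 85 and 45 on the WT RCA arrays, 80, 61 and 11 on WT LCA, 61, 78 and 70 on KO RCA, and 83, 53 and 87 on KO LCA. One array, WT LCA replicate 3, therefore stood apart: it also had the lowest median correlation with the other arrays (0.646, against 0.743 to 0.848) and the fewest genes above the guide (16%, against 28.5% to 48.5%). It held the lowest of the 12 values for 52 of the 96 tested members, and for 24.5% of all tested genes. In comparisons that use WT LCA, counts over all tested members by sign and by p are also given without it. The median over members of the group mean intensity was 110 for WT RCA, 109 for WT LCA, 114 for KO RCA and 116 for KO LCA.

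**Figure D1:**
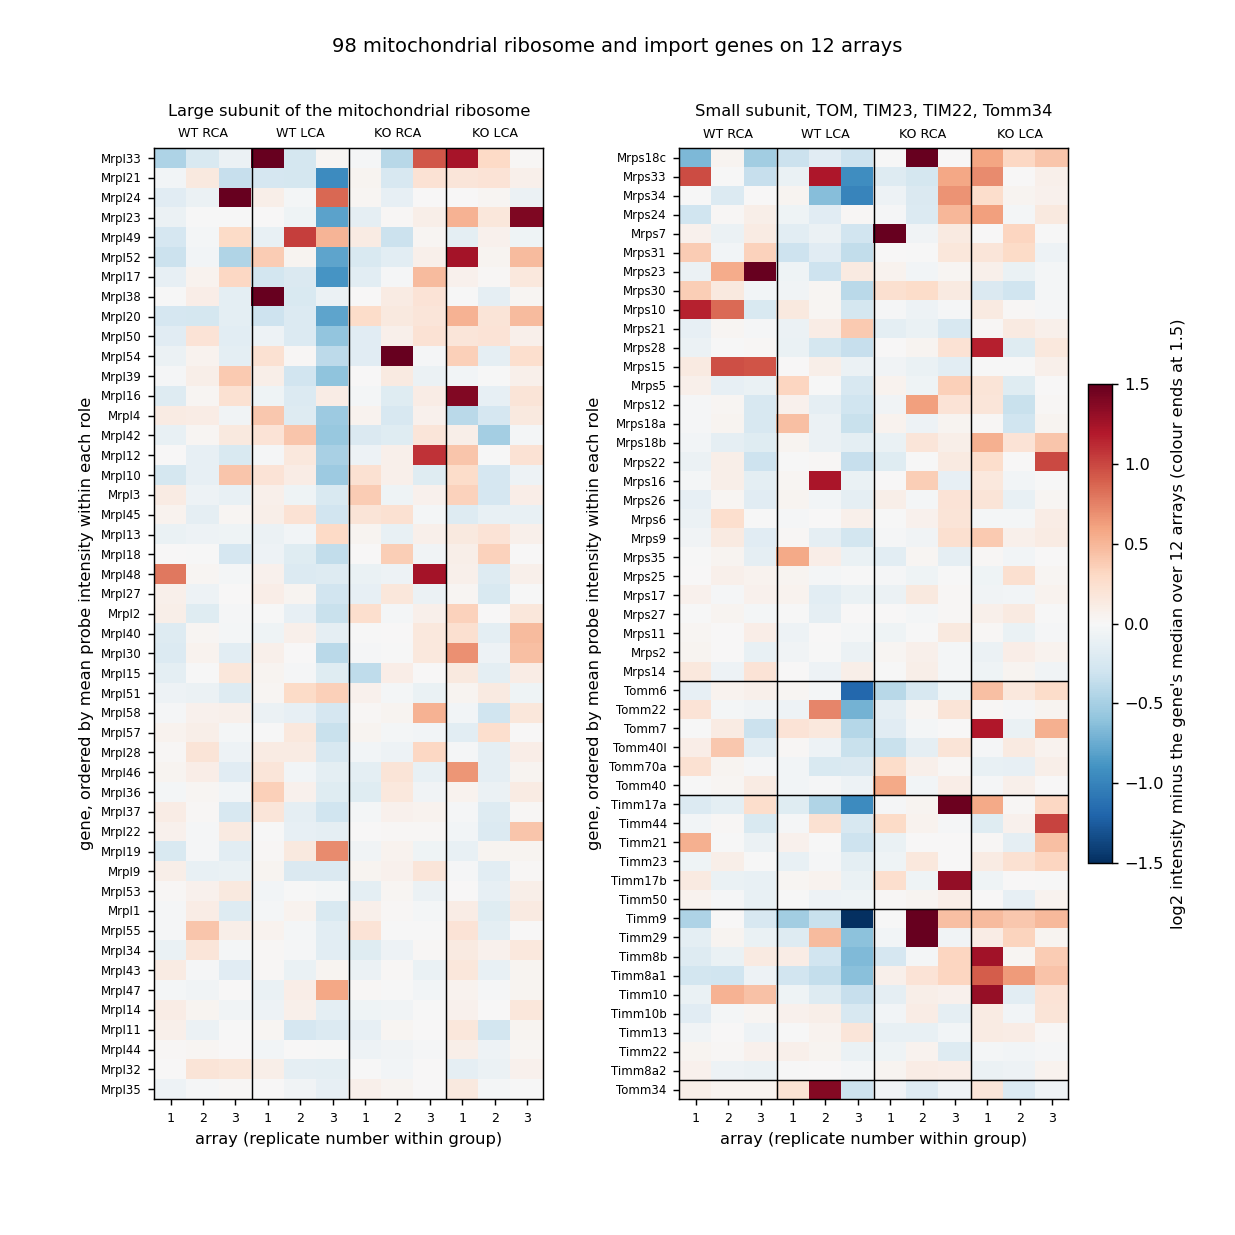
Log2 intensity of each of the 98 genes on each of the 12 arrays, minus the gene's median over the arrays; rows are genes by role, columns are arrays by group, red is above and blue below the median, and the colour ends at 1.5 log2 units. The WT LCA replicate 3 column is blue for many genes, and single dark red cells mark genes that were high on 1 array.

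Averaged over both arteries, Timm8a1 was higher in KO than in WT, and it was the only member to pass the test in any comparison. Timm8a1 encodes a small Tim chaperone of the intermembrane space, which works with the Timm13 protein and whose human counterpart is lost in a deafness and dystonia syndrome. Its intensity was 117, 115 and 134 on the WT RCA arrays, 115, 110 and 91.1 on WT LCA, 148, 163 and 177 on KO RCA, and 265, 220 and 190 on KO LCA. All 6 KO arrays lay above all 6 WT arrays, and the 3 KO LCA arrays lay above the 3 KO RCA arrays. The group means were 122 ± 10.7 (SD, n = 3), 106 ± 12.8, 163 ± 14.2 and 225 ± 37.7 in the same order. The mean of the KO groups minus the mean of the WT groups was 0.75 ± 0.10 (SE) on the log2 scale, with an adjusted p of 0.0282 (limma, Benjamini-Hochberg over 15395 genes). In that comparison 17 genes passed, 0.11% of those tested, and 1 of the 96 members did. The call depends on the settings: it passed under 15 of 24 alternatives, with an adjusted p between 0.0196 and 0.156 in limma. It was lost when any of 3 arrays of WT RCA, KO RCA replicate 2 or 3, or KO LCA replicate 1 or 2 was left out, where the difference stayed between 0.69 and 0.79. Timm8a1 has 1 probe, so no other probe bears on it. In bulk RNA, fewer cells of a type and less RNA per cell cannot be told apart.

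Within each artery the Timm8a1 difference did not pass. KO LCA minus WT LCA was 1.08 ± 0.14 (adjusted p = 0.0717 in limma), KO RCA minus WT RCA was 0.42 ± 0.14 (adjusted p = 1.00), and KO LCA minus KO RCA was 0.46 ± 0.14 (adjusted p = 0.715). The ligation difference in KO minus that in WT was 0.67 ± 0.19 (adjusted p = 0.902), so a difference between arteries in the genotype effect was not established. Its partner Timm13 was near background, at 88.3 to 93.7 for WT RCA, 92.6 to 105 for WT LCA, 86.0 to 90.2 for KO RCA and 94.3 to 102 for KO LCA. The paralog Timm8a2 was above background on no array.

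Mrpl20, a protein of the large ribosomal subunit, was the other member whose 6 KO arrays lay above all 6 WT arrays. It read 132, 131 and 142 for WT RCA, 127, 137 and 91.6 for WT LCA, 191, 175 and 179 for KO RCA, and 227, 180 and 220 for KO LCA. The lowest KO value was 175 and the highest WT value 142. These 2 of 96 members compare with 0.825% of all tested genes that separated in this direction, and 0 members separated downward, against 0.182%. The difference of the genotype means was 0.63 ± 0.10, which missed the threshold (adjusted p = 0.0625 in limma) and passed under 4 of 24 alternatives (array weights, the mean over probes, cyclic loess, and without WT LCA replicate 3), with a range of 0.0242 to 0.314. A dimmer Mrpl20 probe, with a mean of 90.8, gave -0.01 for the same difference, so the difference rests on 1 of 2 probes. The mean of the dimmer probe lies below the lowest background guide of 95.7, so that probe says little about the difference.

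Among the other members, Mrps18b and Timm23 had the next smallest p for KO against WT. Mrps18b, a small subunit protein, read 102, 95.3 and 92.5 for WT RCA, 108, 98.6 and 94.7 for WT LCA, 98.1, 119 and 112 for KO RCA, and 152, 121 and 140 for KO LCA. Only the KO LCA arrays stood clear of the other groups. Its genotype difference was 0.32 ± 0.07 (adjusted p = 0.196 in limma), and its other 2 probes gave 0.20 and 0.30. Timm23, the channel of the presequence translocase, read 102, 114 and 107 for WT RCA, 99.8, 106 and 97.1 for WT LCA, 103, 120 and 108 for KO RCA, and 117, 126 and 135 for KO LCA. Its values overlapped between genotypes in RCA and not in LCA, and the genotype difference was 0.17 ± 0.06 (adjusted p = 0.452 in limma).

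**Figure D2:**
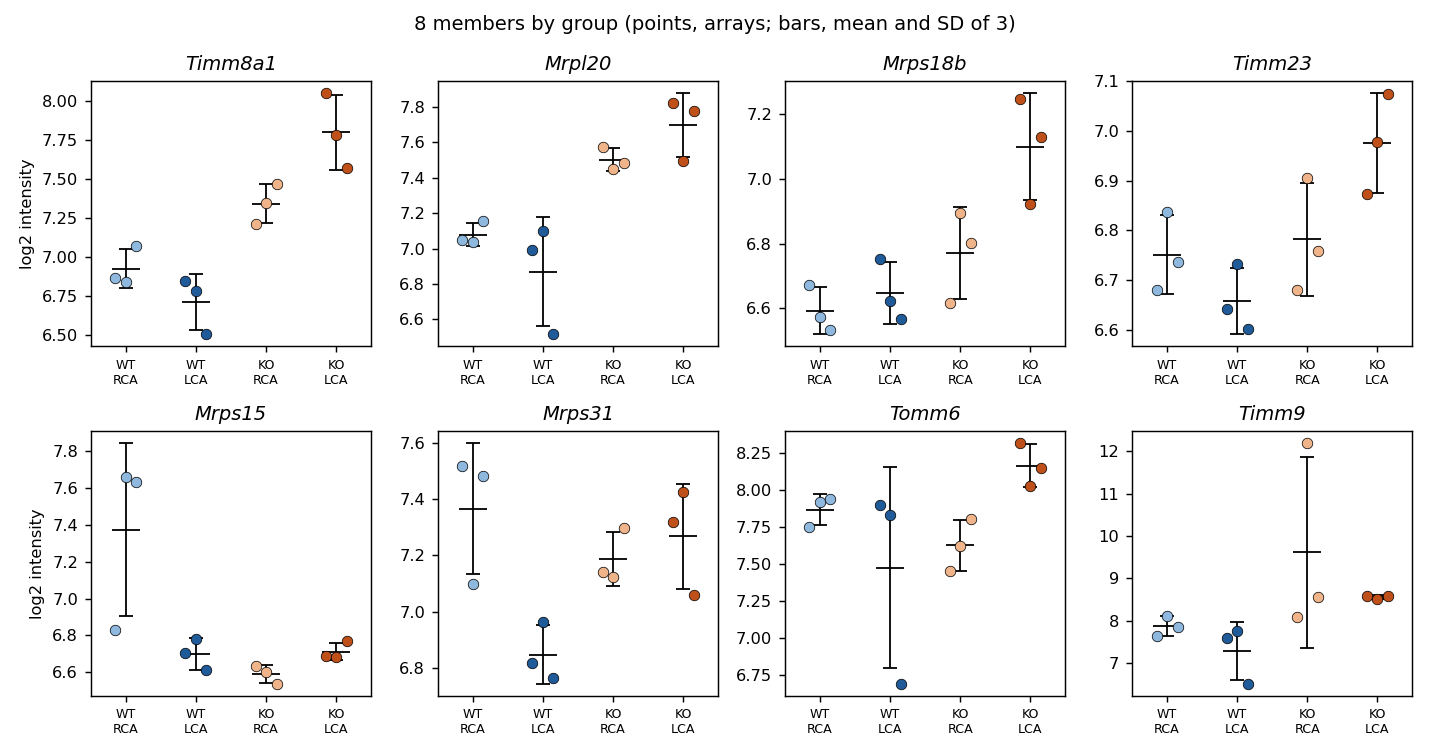
Log2 intensity of 8 members by group, with points for arrays and bars for the mean and SD of 3 arrays. Timm8a1 and Mrpl20 have all 6 KO points above all 6 WT points, Mrps15 is high on 2 of the WT RCA arrays, and Timm9 has 1 KO RCA array far above the rest; the vertical axes do not start at 0 and differ between panels.

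Over all members, 68 of 96 lay above 0 in mean KO minus mean WT, with a median of 0.06, against 46.4% of all genes and a median of -0.01. Without WT LCA replicate 3 the count was 61, with a median of 0.03 and 50.4% of all genes, and with both WT arrays numbered 3 left out it was 58, with a median of 0.03 and 53.5% of all genes. At an unadjusted p under 0.05 in limma 14 members were higher (5.0% of all genes) and 1 was lower (1.82% of all genes). These counts were 8 and 3 without WT LCA replicate 3, where 4.39% and 2.92% of all genes were higher and lower. They were 8 and 2 with either WT RCA replicate 1 or 3 left out. Without KO RCA replicate 3 they were 9 and 1, and without KO LCA replicate 1 they were 7 and 1. In those settings 4.27% to 4.65% of all genes were higher and 1.32% to 2.01% lower. With both WT arrays numbered 3 left out the counts were 5 and 4 of 96, close to the shares of all genes, 4.05% and 3.42%. Cyclic loess normalization gave 8 and 2, against 3.62% and 3.03% of all genes. Other settings gave more: 18 and 3 without WT LCA replicate 1, against 5.65% and 3.22% of all genes. There 75 of 96 members lay above 0, against 48.3%. Without KO LCA replicate 2 the counts were 18 and 1 (5.13% and 1.38%), with 72 members above 0, against 45% of all genes. In the main fit all 6 TIM23 members, 7 of 9 TIM22 members and 5 of 6 TOM members lay above 0. So did 32 of 47 large subunit and 18 of 27 small subunit members. The lower one was Mrps15, described with the ligation results. Summed intensities of markers of the cell types of an artery varied between groups as well. The summed intensity of 10 smooth muscle markers was 977 to 1191 for WT RCA, 955 to 1428 for WT LCA, 1277 to 2121 for KO RCA and 1949 to 2441 for KO LCA. That of 4 red blood cell markers was 694 to 1894, 1372 to 1988, 2071 to 5387 and 1377 to 2847. In mean KO minus mean WT, 0 of 9 tested smooth muscle and 0 of 4 red blood cell markers passed the adjusted test. At an unadjusted p under 0.05 in limma 2 in each list were higher, where 5.0% of all genes were. In that comparison 8 of 9 smooth muscle markers (median 0.09) and 4 of 4 red blood cell markers (median 0.51) lay above 0. So did 8 of 10 adipocyte, 6 of 10 fibroblast, 4 of 8 macrophage and 1 of 2 neuron or Schwann cell markers. Fewer did among 12 endothelial (5, median -0.12), 5 neutrophil (1) and 5 skeletal muscle markers (2). None of the 10 smooth muscle markers exceeded the background guide on all 12 arrays, and each did on at least 1, while 8 of 12 endothelial markers exceeded it on all. The adipocyte markers Plin1, Lep, Retn and Elovl3 and the skeletal muscle markers Acta1, Ckm, Tnnt3, Tnni2, Myh1 and Atp2a1 exceeded it on none. The part of cell makeup in the member differences was not tested.

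At least 1 of 3 short promoter motifs, which the choice by name did not use, was found in 47 of 86 members (54.7%), against 16.7% of protein-coding genes, 20.2% of the genes tested and 22 of 44 cytosolic ribosomal protein genes. RefSeq's table (build GRCm38.p6) held a promoter window, from 250 bases before to 50 after a gene's start, for 86 of the 98 members. In each window, on both strands, 3 motifs were searched: CGCATGCG, the core of the site of NRF1, a factor known for nuclear genes of mitochondria; CCGGAAG, the core of sites of ETS factors such as GABPA; and AAGATGGCG, a site of YY1. The ETS core ends and the YY1 motif starts with AAG, so the 2 can overlap, which they did in 0 member windows. A gene with several listed starts, as 5 members have, counts once. The ETS core was in 35 of 86 member windows (40.7%), against 12.9% of 17491 protein-coding genes and 15.7% of the genes tested. NRF1's core was in 8 (9.3%) against 2.77% and 3.34%, and the YY1 motif was in 9 (10.5%) against 2.14% and 2.71%. Import genes held the ETS core in 9 of 19 windows and mitochondrial ribosome genes in 26 of 67. For comparison, cytosolic ribosomal protein genes held the ETS core in 45.5% of 44 windows and the NRF1 core in 2.27%, while nuclear genes of oxidative phosphorylation held them in 25.0% and 14.1% of 64. A match describes letters and is not evidence of binding.

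**Figure D3:**
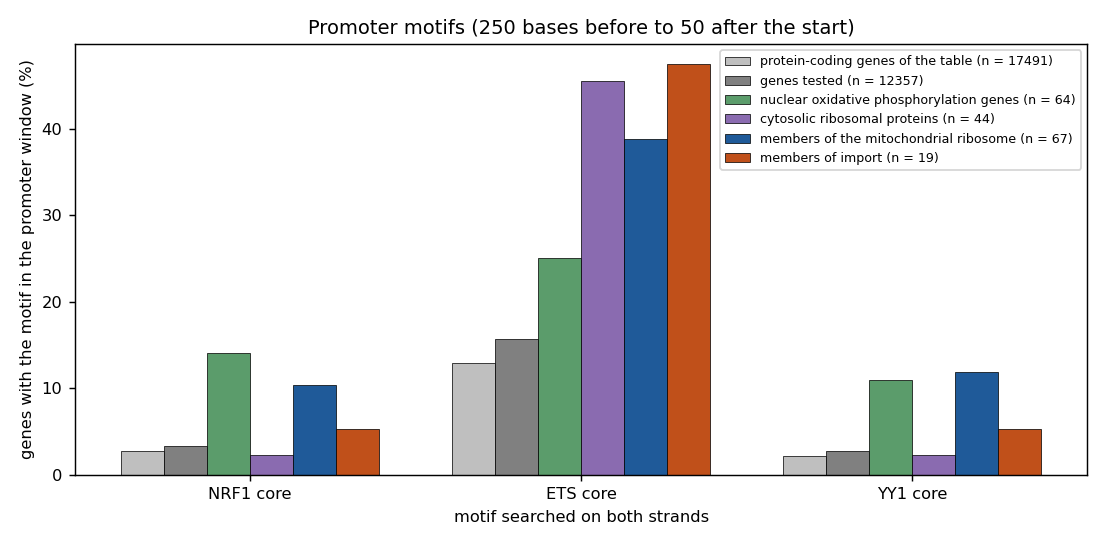
Share of genes, in percent, with each of 3 motifs in the promoter window, for member genes of the mitochondrial ribosome and of import and for 4 comparison sets, with the number of windows in the key. The ETS core stands at 38.8% and 47.4% in the 2 member sets and at 15.7% in the genes tested.

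The 150 bases before the start are shown for Timm8a1 and Mrpl20, whose genotypes did not overlap, for Timm23 as an example of the ETS core and for Mrpl17 and Mrpl39 as examples of the NRF1 core, 5′ to 3′ on the gene's strand, with motif matches in capitals.
Timm8a1 (chrX:134541671-134541820, minus strand): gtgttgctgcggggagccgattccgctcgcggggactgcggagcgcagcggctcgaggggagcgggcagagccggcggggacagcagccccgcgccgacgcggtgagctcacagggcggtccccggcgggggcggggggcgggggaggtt
Mrpl20 (chr4:155802728-155802877, plus strand): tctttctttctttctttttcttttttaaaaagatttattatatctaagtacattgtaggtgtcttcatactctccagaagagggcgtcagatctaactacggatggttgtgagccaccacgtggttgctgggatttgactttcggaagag
Timm23 (chr14:32201892-32202041, minus strand): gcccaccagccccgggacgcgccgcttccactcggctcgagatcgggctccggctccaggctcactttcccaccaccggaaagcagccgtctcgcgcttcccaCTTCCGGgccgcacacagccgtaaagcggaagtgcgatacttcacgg
Mrpl17 (chr7:105811088-105811237, minus strand): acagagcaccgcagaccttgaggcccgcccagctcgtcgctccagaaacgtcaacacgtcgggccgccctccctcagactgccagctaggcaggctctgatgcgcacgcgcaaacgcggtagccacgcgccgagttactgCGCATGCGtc
Mrpl39 (chr16:84735245-84735394, minus strand): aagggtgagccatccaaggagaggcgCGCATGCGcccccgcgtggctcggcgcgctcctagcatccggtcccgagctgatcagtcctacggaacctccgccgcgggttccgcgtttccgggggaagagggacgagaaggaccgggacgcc
Timm8a1 and Mrpl20 held none of the 3 motifs in their windows, which says only that these letters are absent there. In the stretches shown, Timm23 has the ETS core on the opposite strand, starting 47 bases before the start. Mrpl17 and Mrpl39, proteins of the large subunit, have the NRF1 core 10 and 124 bases before the start.

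In the ligated artery, KO stood above WT for most members, but no member passed. In KO LCA minus WT LCA 71 of 96 members lay above 0, against 47.1% of all genes, and the median was 0.09 against -0.01. The adjusted test called 0 members in limma, and 0.0065% of all genes. At an unadjusted p under 0.05, 18 members were higher, where 4.83% of all genes were, and 0 were lower, where 1.99% were. Without overlap between the 3 KO and 3 WT arrays 20 members were higher, against 8.22% of all genes, and 0 were lower, against 5.52%. For 17 of the 18 members WT LCA replicate 3 was the lowest of the 12 arrays. Over 10 fibroblast markers the summed intensity was 1110 to 1484 in WT LCA and 1597 to 2108 in KO LCA, and its part was not tested. Without WT LCA replicate 3, 66 of 96 members lay above 0, against 50.9% of all genes, and the median was 0.05. At an unadjusted p under 0.05 the counts were then 9 higher and 4 lower, with 3.67% and 3.49% of all genes. Leaving out KO LCA replicate 1 gave 10 higher and 0 lower (4.11% and 1.12% of all genes). Cyclic loess normalization gave 9 and 2 (3.33% and 3.14%). Other settings gave more. Without KO LCA replicate 2 they were 23 and 1 (5.24% and 1.37%), with 78 members above 0, against 45.9% of all genes. Without WT LCA replicate 1 they were 19 and 4 (5.7% and 5.48%), with 81 members above 0, against 50.5%. Subtracting each array's minimum gave 20 and 0 (5.07% and 2.21%).

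The 18 members were spread over the roles: 8 of 47 large subunit, 6 of 27 small subunit, 2 of 9 TIM22, 1 of 6 TIM23 and 1 of 6 TOM members. After Timm8a1, Mrpl20, Mrps18b and Timm23, whose differences here were 1.08, 0.83, 0.45 and 0.32, or 0.98, 0.65, 0.41 and 0.29 without WT LCA replicate 3, the smallest p was that of Mrpl23. Mrpl23, a large subunit protein, read 168, 160 and 95.9 in WT LCA and 241, 188 and 442 in KO LCA, a difference of 0.98 ± 0.30 (adjusted p = 0.454 in limma). Its lowest WT and highest KO arrays lay far from their groups. Tomm6, a small subunit of the TOM channel, read 239, 228 and 103 in WT LCA and 319, 261 and 283 in KO LCA, a difference of 0.69 ± 0.27 (adjusted p = 0.649 in limma). Its WT spread came from replicate 3, and the other 2 WT arrays were still below the KO arrays. A dimmer second Tomm6 probe gave 0.06 for the same difference. Mrpl21 of the large subunit read 203, 202 and 125 in WT LCA and 274, 278 and 255 in KO LCA, with WT replicate 3 again the lowest. The Mrpl21 difference was 0.64, and a dimmer second probe, with a mean of 97.2, gave -0.09. Mrps34 of the small subunit read 218, 136 and 106 in WT LCA and 253, 218 and 222 in KO LCA, so its groups nearly met.

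Members below 0 in the ligated artery were few and uneven. The smallest p among them belonged to Mrpl49, Mrpl51, Mrpl19 and Tomm34. Mrpl49 read 158, 351 and 243 in WT LCA and 154, 178 and 163 in KO LCA, and these ranges overlapped. The Mrpl49 difference was -0.53, while its other probes, with means of 95.9 to 98.4, gave -0.01, 0.01 and 0.03. Tomm34 read 133, 297 and 92.6 in WT LCA and 129, 99.6 and 110 in KO LCA, a difference of -0.46 that turned to 0.016 without WT LCA replicate 2. Mrpl51 and Mrpl19 were highest on WT LCA replicate 3, at 139 and 163, against 104 to 119 and 92.7 to 103 on the KO LCA arrays.

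In the untouched artery no member passed. In KO RCA minus WT RCA 57 of 96 members lay above 0, against 51.0% of all genes, with a median of 0.04. Without KO RCA replicate 3 the count was 46 and the median -0.0096, and without WT RCA replicate 3 they were 50 and 0.0044. Of all genes 49.8% and 54.4% then lay above 0. The adjusted test called 0 members and 0.0% of all genes in limma. Counting an unadjusted p under 0.05, 3 members were higher (Timm8a1, Mrpl20 and Mrps18c), where 2.51% of all genes were, and 1 was lower (Mrps15), where 1.78% were. Leaving out KO RCA replicate 1 gave 7 and 1 (2.91% and 1.29% of all genes), and leaving out KO RCA replicate 2 gave 6 and 3 (2.99% and 1.46%). Without overlap 2 members were higher, against 6.79% of all genes, and 4 were lower, against 5.18%, so both shares were below those of all genes. Mrps18c, a small subunit protein, read 141, 231 and 157 in WT RCA and 223, 861 and 225 in KO RCA. Its ranges overlapped, and 1 KO array was far above the rest.

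**Figure D4:**
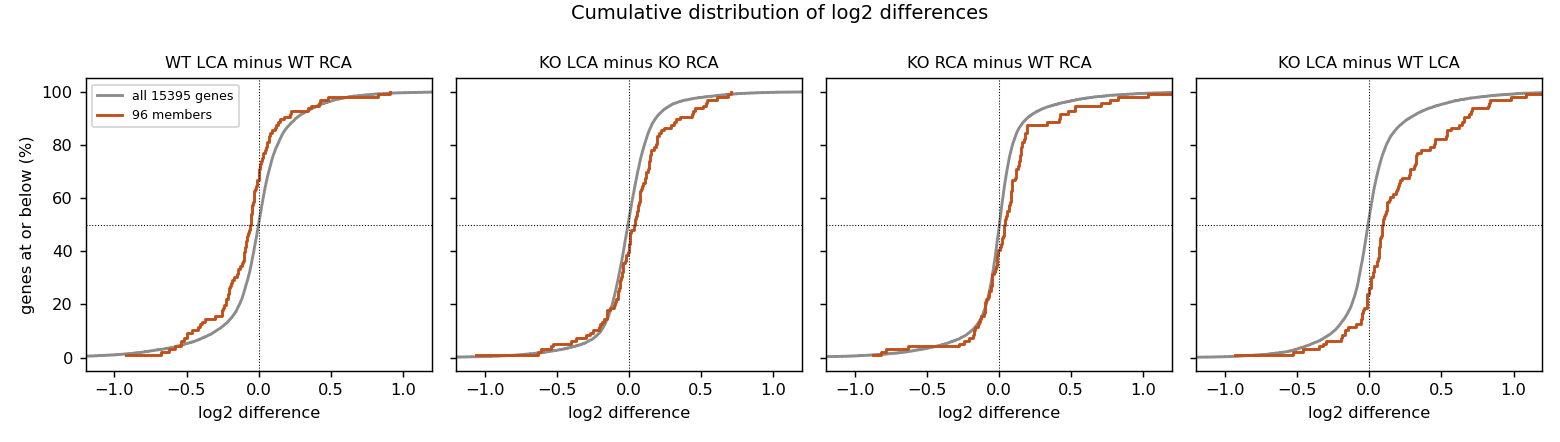
Cumulative distribution of log2 differences for the 96 tested members (orange) and all 15395 genes (grey) in 4 comparisons; a few genes lie beyond the ends of the horizontal axis. The member curve lies right of the grey one in KO LCA minus WT LCA, with medians of 0.09 and -0.01, and left of it in WT LCA minus WT RCA, with medians of -0.05 and -0.0012.

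After ligation in WT most members lay below 0, and this leaned on 1 array. In WT LCA minus WT RCA 31 of 96 members lay above 0, against 49.6% of all genes, with a median of -0.05. Without WT LCA replicate 3 the count was 47 and the median -0.0032, without WT LCA replicate 1 they were 18 and -0.10, and with cyclic loess 41 and -0.03. The shares of all genes above 0 were then 46.3%, 47% and 53.4%. The adjusted test called 0 members and 0.0% of all genes in limma. At an unadjusted p under 0.05, 2 members were higher, where 2.46% of all genes were, and 7 were lower, where 4.44% were. Without WT LCA replicate 3 these were 4 and 2 (3.52% and 2.39% of all genes). Without WT LCA replicate 1 they were 6 and 9 (6.81% and 6.09%). Without WT RCA replicate 2 they were 2 and 4 (2.11% and 6.22%), and with cyclic loess 3 and 3 (3.22% and 3.35%). With both WT arrays numbered 3 left out 0 were higher and 3 lower (2.09% and 3.09%). Without overlap 2 members were higher, against 4.49%, and 10 were lower, against 6.6%.

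Mrps31 had the smallest p in this comparison. This small subunit protein read 183, 137 and 179 in WT RCA and 113, 125 and 109 in WT LCA, a difference of -0.52 ± 0.13 (adjusted p = 0.535 in limma), or -0.47 without WT LCA replicate 3. Its other 3 probes, all dimmer, gave -0.06, -0.11 and -0.01, so the difference rests on 1 of 4 probes. The means of these dimmer probes were 97.0, 106 and 92.9, the last below the lowest background guide of 95.7. The groups did not overlap, and in KO it read 141, 139 and 157 in RCA and 159, 172 and 134 in LCA, where they did. Mrps15, another small subunit protein, read 114, 202 and 198 in WT RCA and 104, 110 and 97.8 in WT LCA, a difference of -0.68 ± 0.18 (adjusted p = 0.574 in limma). In KO it was near background, at 99.5, 97.0 and 92.9 in RCA and 103, 103 and 109 in LCA. KO RCA lay at background, which puts it at least 1.63-fold below WT RCA. Leaving out WT RCA replicate 1, the array at 114, gave a difference of -0.95 in WT with an adjusted p of 0.00413 in limma, so 1 array decides this call. The second Mrps15 probe, with a mean of 98.1, gave 0.02 in WT, so the pattern is that of 1 probe.

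The other lower members in WT included Mrpl17 and Mrpl39. Mrpl17 read 159, 180 and 216 in WT RCA and 143, 150 and 94.0 in WT LCA, and Mrpl39 read 147, 159 and 195 against 159, 122 and 98.0. In both the lowest value was that of WT LCA replicate 3. Tomm70a, a TOM receptor for carriers, read 121, 106 and 102 against 100, 88.3 and 89.2, close to background throughout. Those with the smallest p on the higher side were Mrpl51 (0.34 ± 0.09), Mrpl19 (0.42 ± 0.15), Timm13 and Mrpl49. Timm13 was at background in both WT groups. The Mrpl49 difference was 0.48, while its other, dimmer probes gave -0.02, 0.02 and -0.02.

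After ligation in KO more members lay above 0 than below. In KO LCA minus KO RCA 57 of 96 lay above 0, against 48.1% of all genes, with a median of 0.04. Leaving out KO LCA replicate 3 gave 49 and a median of 0.0058, and leaving out KO LCA replicate 1 gave 51 and 0.0078. Of all genes 47.2% and 47.4% then lay above 0. The adjusted test called 0 members and 0.0% of all genes in limma. By an unadjusted p under 0.05, 7 members were higher, where 2.81% of all genes were, and 1 was lower, where 4.06% were. Without overlap 11 were higher, against 8.44%, and 3 were lower, against 11.5%. The higher ones were Timm8a1, Mrps18b, Timm13, Timm23, Mrpl23, Mrpl34 and Mrps21. Timm13 and Mrpl34 were at background in KO RCA, so the size of their change was not measured. The counts of higher and lower members were 3 and 3 without KO LCA replicate 3 (3.14% and 2.99% of all genes). Without KO LCA replicate 2 they were 14 and 0 (2.85% and 2.46%), and without WT RCA replicate 3 they were 4 and 1 (2.79% and 4.54%). With KO RCA replicate 1 or 3 left out they were 3 and 2 (1.99% and 3.83%) or 4 and 2 (2.09% and 3.7%). Array weights gave 15 and 2 (4.9% and 6.9%). In the same comparison 8 of 10 fibroblast markers lay above 0, with a median of 0.28 and 4 at an unadjusted p under 0.05, and 0 of 4 red blood cell markers did, with a median of -0.47; their part was not tested. Mrps30 was the lower one, at 153, 157 and 142 in KO RCA and 111, 105 and 127 in KO LCA, a difference of -0.40 ± 0.13 (adjusted p = 0.715 in limma). It was also lower in WT, at 168, 144 and 126 in RCA and 125, 132 and 98.2 in LCA, where the ranges overlapped. Timm17b, a TIM23 subunit, read 110, 88.3 and 230 in KO RCA and 87.9, 92.7 and 92.0 in KO LCA, which is at background and at least 1.32-fold lower, though 1 array at 230 sets this.

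Ligation averaged over both genotypes moved no member past the threshold. In mean LCA minus mean RCA 41 of 96 lay above 0, against 49.4% of all genes, and the median of -0.02 turned to 0.02 without WT LCA replicate 3. Without that array 58 of 96 members lay above 0, against 47.7% of all genes. The adjusted test called 0 members and 0.0% of all genes in limma. Counting an unadjusted p under 0.05, 4 were higher, where 3.64% of all genes were, and 3 lower, where 6.22% were. These counts were 8 and 3 without KO LCA replicate 2 (2.99% and 4.59% of all genes) and 7 and 8 without WT LCA replicate 1 (6.28% and 7.62%). Without WT LCA replicate 3 they were 7 and 2 (4.39% and 5.37%), and without KO RCA replicate 2 they were 4 and 6 (2.61% and 5.61%). Mrps30 had the smallest p (-0.35 ± 0.10, adjusted p = 0.470 in limma). The test of whether ligation differed between genotypes, KO LCA minus KO RCA against WT LCA minus WT RCA, also called 0 members and 0.0% of all genes in limma. There 62 of 96 members lay above 0, against 47% of all genes, with a median of 0.09 against -0.01. Without WT LCA replicate 3 they were 56 and 0.06, with 50.7% of all genes above 0. At an unadjusted p under 0.05, 6 members were higher (Timm8a1, Mrps31, Mrps15, Timm23, Tomm6 and Mrpl23), where 2.18% of all genes were, and 0 were lower, where 1.34% were. Without WT LCA replicate 3 the counts were 4 and 1 (1.94% and 2.41% of all genes). Without WT LCA replicate 1 they were 9 and 3 (2.75% and 2.36%), and with cyclic loess 3 and 1 (1.87% and 1.54%). The count of 6 was 14 without KO LCA replicate 2 (2.47% of all genes). It was 3 when KO LCA replicate 3, KO RCA replicate 1 or WT RCA replicate 2 was left out (2.07%, 1.77% and 2.29%). This comparison reuses the 4 groups of the simple ones and is no separate evidence.

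Many members were high on a single array. In 26 of the 96 the highest array was at least 2 times the median of the other 11, a share of 27.1% against 18.4% of all genes tested, and in 7 it was at least 4 times (7.29% against 4.56%). Timm9, which forms with Timm10 the chaperone of carriers, read 273, 4705 and 375 in KO RCA, while its other arrays lay between 91.2 and 384. The value of 4705 was 17.2 times the median of the rest, and the other 3 Timm9 probes read 0.95 to 1.12 times theirs on that array. Mrpl38 was 8.10 times higher on WT LCA replicate 1, Mrpl24 6.93 times on WT RCA replicate 3 and Mrpl54 5.58 times on KO RCA replicate 2. Timm29, a subunit of the TIM22 complex, was 4.68 times higher on KO RCA replicate 2, Mrps7 4.38 times on KO RCA replicate 1 and Mrps23 4.18 times on WT RCA replicate 3. Of the 26 members 13 had another probe, and in 3 of these (Mrpl33, Mrps33 and Timm17b) another probe was at least 2 times higher on the same array. Mrpl33 read 1197 on WT LCA replicate 1 against 226 to 733 elsewhere, 3.90 times the median of the rest, and its second probe was 4.40 times higher there. Of the 26 highs 6 lay on KO LCA replicate 1, among them Timm8b, a small Tim chaperone, at 352 and Tomm7, a small TOM subunit, at 302.

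**Figure D5:**
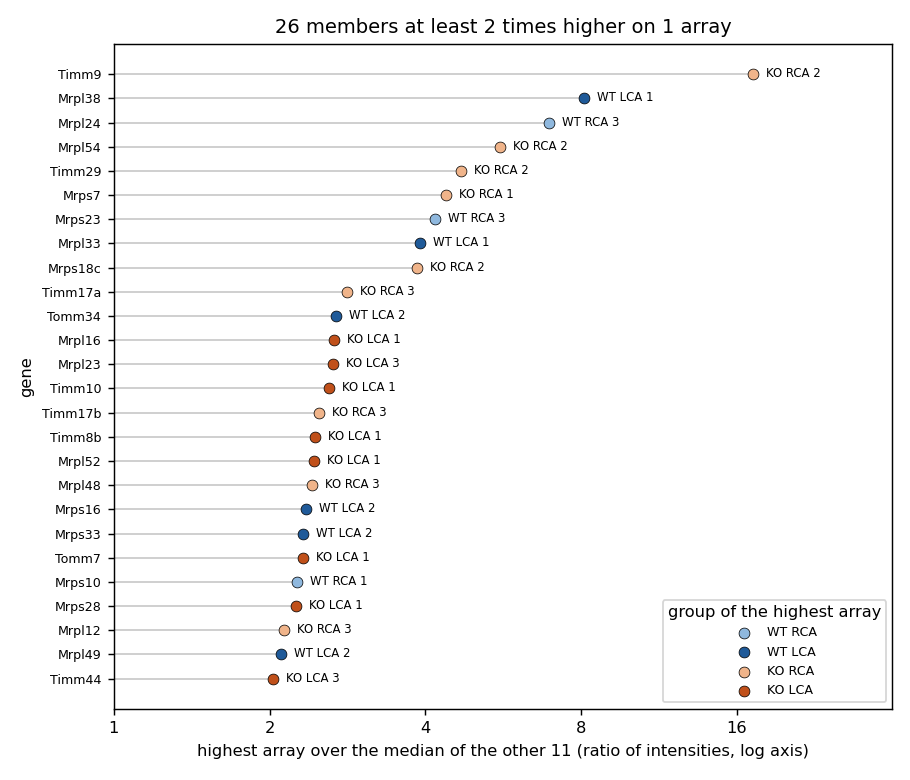
For the 26 members at least 2 times higher on 1 array, the intensity of that array over the median of the other 11, on a log axis, coloured by the group of the highest array. Timm9 on KO RCA replicate 2 stands at 17.2, and the highs fall on arrays of all 4 groups.

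The remaining members chosen for their intensity had wide ranges within groups. Tomm22, the central TOM receptor, read 173, 148 and 146 for WT RCA, 143, 251 and 92.5 for WT LCA, 137, 154 and 173 for KO RCA, and 153, 149 and 156 for KO LCA. Timm17a, a core subunit of TIM23, was at 144 to 200 for WT RCA, 86.7 to 146 for WT LCA, 164 to 462 for KO RCA and 169 to 246 for KO LCA. Timm44, which tethers the import motor, reached 231 on KO LCA replicate 3 and lay between 96.9 and 140 on the other arrays. Timm21 reached 156 on WT RCA replicate 1 and 147 on KO LCA replicate 3, with 87.1 to 113 elsewhere. Mrps33 ranged from 91.7 to 406, both within WT LCA.

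Genes that act with the members were read from lists chosen by function. Among 27 other import, processing and folding genes, 1 passed in any comparison: Hspa9, the mitochondrial Hsp70 (mortalin) that drives import through TIM23. It read 168, 143 and 150 for WT RCA, 146, 135 and 91.6 for WT LCA, 225, 195 and 266 for KO RCA, and 258, 258 and 289 for KO LCA. Here too all 6 KO arrays lay above all 6 WT arrays. Mean KO minus mean WT was 0.85 ± 0.12 (adjusted p = 0.0487 in limma), and the alternatives gave 0.0196 to 0.208, passing in 9 of 24. Of the arrays left out in turn, it passed without WT LCA replicate 1 or 3 and missed without any of the other 10. Of this list 23 of 27 lay above 0 in that comparison, with a median of 0.07, where 46.4% of all genes did. In the same comparison 17 of 31 mitochondrial translation and ribosome assembly factors lay above 0 (median 0.02), and 7 of 18 genes of mitochondrial biogenesis and transcription did (median -0.05). None of these passed in limma.

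Other ribosomal and mitochondrial genes were set beside the members in the ligated artery. In KO LCA minus WT LCA the median was 0.19 for 54 cytosolic ribosomal proteins and 0.17 for 75 nuclear genes of oxidative phosphorylation, against 0.09 for the 96 members. Of these 38 of 54 and 52 of 75 lay above 0, where 47.1% of all genes did. By an unadjusted p under 0.05, 2 of 54 and 9 of 75 were higher, beside 18 of 96 members and 4.83% of all genes. Without WT LCA replicate 3, 9 members were higher and 4 lower, and the other lists were not recounted without it. After ligation in KO 44 of 54 cytosolic ribosomal proteins (median 0.19) and 54 of 75 oxidative phosphorylation genes (median 0.10) lay above 0, beside 57 of 96 members (median 0.04) and 48.1% of all genes. The differences between these lists were not tested.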

How the data were processed

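Carotid artery RNA was measured in 12 samples, 3 in each of 4 groups taken from the sample titles, on one-colour Illumina arrays. The authors deposited a linear intensity for each of 45281 probes. These values have the same distribution on every array, with a lowest value of 72.4 and a median between 93.5 and 93.6, which is what quantile normalization by the authors would give. No source used here names the scanner software, the background step or the normalization tool, so folds of dim genes are compressed to an unknown degree, and no slide or scan batch could be tested. Precision is limited by the number of arrays.

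Gene names came from the platform annotation (34885 with 1 gene symbol, 18 with several, 10378 with none). A probe was kept when at least 3 arrays had it at or above their median, and the probe with the highest mean stood for its gene, giving 15395 genes. Log2 intensity entered 1 fit of 4 group means in limma 3.58.1 (R 4.3.3) with eBayes, with two-sided p-values adjusted by Benjamini-Hochberg over all genes tested and a threshold of 0.05. No values below 1 occurred. The genotype test was checked on simulated data with independent normal noise of each gene's measured spread. That check does not cover an outlying array, single-array highs or paired samples. Groups are said not to overlap when all arrays of one lie above all of the other. A gene above the background guide on no array of a group is at background there, and a fold against it is a lower bound against the guide. Tables and figures were made in Python 3.11.15 with pandas 2.3.3 and matplotlib 3.10.9.

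Genes named with values were the 3 of each role with the highest mean, in each comparison the 4 members above and 4 below 0 with the smallest p, and every gene that passed. Others were chosen after their values were seen. The members, the other gene lists and the alternatives were chosen with earlier results of these data known. Equal replicate numbers were not taken to pair the samples in the main fit, since the labels do not say that they mark 1 mouse. Correlations of deviations from the group means between RCA and LCA arrays of a genotype were all below 0.1, which does not exclude pairing. Same-numbered arrays gave 0.04 to 0.07 in WT and -0.02 to 0.04 in KO, and differently numbered ones -0.05 to 0.01 and -0.06 to 0.07. So in WT every same-numbered pair exceeded every differently numbered one, and in KO this was not so. Alternatives were array weights, a block on the replicate number (fixed, or random), trended robust eBayes, no filter or a stricter one, the mean over probes, the probe with the highest median (added after seeing the data), fits of 2 groups alone, cyclic loess, median centring, a pseudocount of 16, subtraction of each array's minimum, and leaving out each array or both WT arrays numbered 3.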

Additional observations from a re-analysis of the deposited data

Results flagged for a closer look

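Mrps15 was lower on all 3 WT LCA arrays than on all 3 WT RCA arrays, and higher on all 3 KO LCA arrays than on all 3 KO RCA arrays, so the ligation differences had opposite signs in the 2 genotypes. KO RCA was at background on all 3 arrays, so the KO sign and size are not a measured change. The WT difference was -0.68 and the KO difference 0.12 on the log2 scale. The difference between them was 0.80 ± 0.26 (SE), and its adjusted p of 0.902 in limma did not pass. It passed without WT RCA replicate 1, at 1.07 with an adjusted p of 0.0174 in limma. The KO values, 92.9 to 109, lay near background, and the second Mrps15 probe gave 0.02 in WT and 0.01 in KO.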

How the results depend on the processing

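Across 26 alternative settings and 70 results, 1714 of 1756 recomputed values counted as unchanged. A gene had to keep its sign and its side of the threshold, and a number of called members had to stay the same. A median only had to move by less than 0.083, the SD of the member level between arrays, so it could change sign. Most of these results had not passed in the main fit, while Timm8a1, which had, kept its call in 15 of 24 settings. The number of members called in mean KO minus mean WT was 1, and became 2 with array weights, with the mean over probes and with cyclic loess, 0 with trend and robust eBayes and without both WT arrays numbered 3, and 0 to 2 over the arrays left out in turn. The number called became 1 in WT LCA minus WT RCA and in KO RCA minus WT RCA without both WT arrays numbered 3, and 1 in KO LCA minus WT LCA with the mean over probes. Leaving out each array in turn gave 0 to 1 in these 3 comparisons and in the test of whether ligation differed between genotypes. The median member difference moved to 0.20 in KO LCA minus WT LCA and to 0.19 in that last test when each array's minimum was subtracted, which widens the log2 scale of dim probes. Tomm34 in KO LCA minus WT LCA was -0.46, turned to 0.016 without WT LCA replicate 2, and ranged from -0.82 to 0.016 over the arrays left out. Otherwise the cause was not tested. With the replicate number as a random block Timm8a1 kept its call (adjusted p = 0.0339 in limma) and Hspa9 lost it (0.0584). With it as a fixed replicate block, which cannot estimate genotype, the members at an unadjusted p under 0.05 after ligation were 2 higher and 7 lower in WT, and 6 and 3 in KO. The shares of all genes were 2.22% and 4.27% in WT, and 2.61% and 3.66% in KO.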
